A study of Homo sapiens with 12 samples.

Results

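The telomerase and shelterin genes examined here were TERT, DKC1, TERF1, TERF2, TERF2IP, POT1, TINF2, ACD and RTEL1. They were chosen by name, and all 9 were found among the 35337 genes measured. Their mRNA was followed in EndoC-βH3, an established human beta-cell line of fetal origin. The SV40 large T antigen gene and hTERT were introduced to keep this line dividing, and both groups descend from it and carry its CreER recombinase. The 6 senescent samples had received 4-hydroxy tamoxifen for 3 weeks, which lets the recombinase remove the 2 introduced genes, and the 6 non-senescent samples were untreated controls. Batch A supplied 2 samples per group and batch B 4 per group, and libraries (prepared by CEL-seq2, which tags the polyadenylated end of each mRNA) ranged from 4672924 to 17106776 reads. The comparison asks how the genes that build and guard chromosome ends behave when the immortalizing genes are excised. The labels do not state that samples of a group were separate cultures, so p-values may cover technical spread only.

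Telomerase lengthens chromosome ends. TERT is its catalytic protein, and DKC1 encodes dyskerin, which binds and stabilizes the telomerase RNA and also serves the guide RNAs that modify ribosomal RNA. Shelterin coats the telomere repeats and keeps them from being handled as DNA breaks. TERF1 and TERF2 bind the double-stranded repeats, TERF2IP (RAP1) rides on TERF2, POT1 binds the single-stranded overhang, ACD (TPP1) pairs with POT1 and recruits telomerase, and TINF2 (TIN2) ties the parts together. RTEL1 is a helicase that unwinds telomere loops during replication. Cultured cells that lack telomerase shorten their telomeres at each division and eventually stop dividing, which is the classical route to replicative senescence.

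Of these genes, POT1 fell with senescence, by 0.70 on the log2 scale. TERF2IP changed the other way, 1.36-fold higher in senescent cells, and TERF2, ACD and DKC1 were 1.27- to 1.39-fold lower. These 4 had an adjusted p under 0.1 but stayed inside the fold change limit of 1.5. Of all tested genes, 45.5% had an adjusted p under 0.1 in either direction, and 11.8% fell past both limits. For TERT, TERF1 and TINF2 no difference passed. RTEL1 had too few reads to be tested.

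The promoters of POT1, TERF2IP and DKC1 are shown because the first 2 genes moved in opposite directions and the last is the telomerase partner that was lower. RefSeq promoters (GRCh38.p14, 250 bases before to 50 after the start site) were matched by symbol for 7 of the 9 genes, and TERF1 and TERF2 had no entry. Each is written 5′ to 3′ on the strand of the gene. Capitals mark the motifs searched on both strands, which were GGGCGG (GC box), CCGGAAG (ETS), TGACGTCA (CRE), CACGTG (E-box), CCAAT, CGCATGCG (NRF1), TTTGAA (CHR) and the E2F forms TTTCGCGC, TTTGGCGC and TTTCCCGC.
POT1, chr7:124929776-124930075, minus strand: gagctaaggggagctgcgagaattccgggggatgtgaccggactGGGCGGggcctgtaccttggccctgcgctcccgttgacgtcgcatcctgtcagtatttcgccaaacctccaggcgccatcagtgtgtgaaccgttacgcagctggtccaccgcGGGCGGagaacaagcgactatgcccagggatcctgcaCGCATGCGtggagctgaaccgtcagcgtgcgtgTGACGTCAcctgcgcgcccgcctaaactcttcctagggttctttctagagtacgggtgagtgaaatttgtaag
TERF2IP, chr16:75647523-75647822, plus strand: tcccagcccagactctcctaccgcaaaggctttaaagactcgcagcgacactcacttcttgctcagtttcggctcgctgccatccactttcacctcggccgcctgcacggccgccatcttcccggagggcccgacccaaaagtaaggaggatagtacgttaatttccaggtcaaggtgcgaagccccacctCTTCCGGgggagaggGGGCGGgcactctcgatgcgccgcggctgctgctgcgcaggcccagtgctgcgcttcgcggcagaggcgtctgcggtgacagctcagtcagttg
DKC1, chrX:154762614-154762913, plus strand: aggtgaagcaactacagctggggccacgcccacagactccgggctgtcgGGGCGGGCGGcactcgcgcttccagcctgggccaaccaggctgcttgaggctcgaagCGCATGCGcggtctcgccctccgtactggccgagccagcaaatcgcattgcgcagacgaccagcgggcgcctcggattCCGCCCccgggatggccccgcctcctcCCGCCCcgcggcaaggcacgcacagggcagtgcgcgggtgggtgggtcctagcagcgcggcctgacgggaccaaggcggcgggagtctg

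The POT1 window held a CRE 23 bases before the start site, an NRF1 motif and 2 GC boxes. The TERF2IP window held an ETS motif and 1 GC box. DKC1 held an NRF1 motif and 4 GC boxes, of which 2 overlap. The CRE was in 1.85% of all 35116 RefSeq promoters of this length, the ETS motif in 10.3%, NRF1 in 2.02% and the GC box in 45.0%. An E-box, in 7.26% of promoters, was found among these genes in the TERT window alone, 163 bases before the start site, and an E2F form, in 2.74%, in the ACD window alone. These matches describe letters and do not show that a factor binds.

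The line was checked against cell type markers. All 10 beta-cell markers passed the filter (a mean normalized read count of at least 5), with sums of 526585 to 663465 in non-senescent and 669787 to 869050 in senescent libraries. Most of this sum was CHGA, a granule protein that other endocrine cells also make (553090 ± 58560 against 646103 ± 132501 normalized read counts, SD, n = 6). Insulin (INS) was at 19853 ± 8849 in non-senescent and 99547 ± 60362 in senescent libraries, whereas the means of NKX6-1 (487 against 366), NEUROD1 (10988 against 9450) and SLC30A8 (3224 against 2797) were lower in senescent libraries. Delta markers (SST and HHEX, 2 of 2) summed to 159942 to 287891 and to 115182 to 142729, so the sum was high, and lower in senescent libraries. Nearly all of that sum was SST (206128 ± 55827 against 128684 ± 10385). HHEX was at 235 ± 151 against 139 ± 85. Alpha markers (3 of 3) overlapped between groups. Of the duct list 1 of 2 passed, and its sum was lower in senescent libraries (77.7 to 158 against 236 to 379). Of the acinar list 1 of 3 passed (CPA1), and its sum was higher, 144 to 251 against 33.9 to 58.4. Of the fibroblast list 1 of 3 passed, with overlapping sums and PDGFRB at 0. All 10 proliferation markers fell, with log2 fold changes of -3.57 to -2.04. The part of these shifts in the results on telomere genes was not tested, and in bulk RNA a smaller share of expressing cells and less mRNA per cell cannot be told apart.

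Telomerase was described first. TERT (GRCh38 chromosome 5, 1253147 to 1295068, minus strand, protein-coding, 16 exons) had 57.8 and 47.7 normalized read counts in the non-senescent and 88.0 and 78.5 in the senescent samples of batch A. In batch B its values were 119, 107, 115 and 137 in non-senescent and 119, 129, 136 and 125 in senescent samples. The groups were apart in batch A, with the senescent samples higher, and overlapped in batch B.

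Over both batches the log2 fold change of TERT was 0.28 ± 0.13 (SE; 95% interval 0.00034 to 0.56), with a limma adjusted p of 0.107, which does not pass. Batch A alone gave 0.65 (limma adjusted p 0.0306) and batch B alone 0.09 (adjusted p 0.595), and the difference between batches did not pass (interaction -0.56 ± 0.24, limma adjusted p 0.267, unadjusted p 0.0325 by the same limma fit). These values rest on 60 to 196 TERT reads per library, so counting error is sizeable. It is not known whether transcripts of the introduced copy were counted as TERT. A long noncoding RNA is annotated antisense to the whole last exon of TERT (665 bp), and the use of strand in the counting is not given in the sources used here. The upper end of the interval over both batches lies below a 1.5-fold rise, but the rise in batch A alone was past both limits.

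DKC1 (chromosome X, 154762742 to 154777689, plus strand) had 617 and 700 normalized read counts in non-senescent and 571 and 531 in senescent samples of batch A. In batch B the non-senescent samples lay close together, at 1284, 1261, 1265 and 1245, and the senescent samples spread from 1155, 1032 and 991 down to 734. Every senescent sample was below every non-senescent sample of its batch. The log2 fold change was -0.34 ± 0.09 (SE, limma adjusted p 0.00672), or 1.27-fold lower. It was -0.25 within batch A and -0.39 within batch B. Without the lowest library, senescent replicate B4, it was -0.26.

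Dyskerin works with NOP10, NHP2 and GAR1, and the chaperones SHQ1, NAF1, RUVBL1 and RUVBL2 help to assemble the particle. Of 11 tested genes of telomerase and its assembly, TERT and DKC1 included, 1 fell past both limits and 0 rose, beside 11.8% and 11.6% of all tested genes (limma; 1 higher at an unadjusted p under 0.05, 0 rises by edgeR). The one that fell was WRAP53, which guides telomerase to Cajal bodies, with a log2 fold change of -0.60 ± 0.18 (SE, limma adjusted p 0.0153). The WRAP53 call was lost in 5 of 14 other settings, inside the fold change limit by edgeR (-0.57), by DESeq2 (-0.57) and at a pseudocount of 8 (-0.52), and over the adjusted p limit in batch A alone (limma adjusted p 0.177) and without the batch term (limma adjusted p 0.107). It was also inside the fold change limit in 5 of 12 fits that left out a library, namely non-senescent replicate B1 (-0.56) or B3 (-0.52) or senescent replicate B1 (-0.58), B3 (-0.57) or B4 (-0.52). At the adjusted p limit alone 7 of 11 were lower, where 22.3% of all 13847 tested genes were lower. NHP2 was lower by 0.54, NOP10 by 0.49 and SHQ1 by 0.41 on the log2 scale. Of the 7, only DKC1 passed that limit when batch A was fitted by itself (limma adjusted p 0.0803). There NHP2 stood at -0.15, NOP10 at -0.25, SHQ1 at -0.22 and RUVBL1, also among the 7, at 0.17. Their batch B values were -0.74, -0.61, -0.51 and -0.50, each passing (limma adjusted p 2.91e-04 to 0.0342). The responses of NHP2 and RUVBL1 differed between batches (limma interaction adjusted p 0.0917 and 0.0991). The median of the list was -0.27 (-0.22 within batch A and -0.39 within batch B), beside 0.01 for all tested genes. The telomerase RNA, TERC, was on the list but was not matched to any of the genes measured, so it was not analysed here.

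Shelterin was compared next, starting with POT1 (chromosome 7, 124822386 to 124929983, minus strand, 19 exons). Its values in batch A were 90.6 and 78.7 normalized read counts in non-senescent and 67.8 and 58.6 in senescent samples. In batch B they were 167, 145, 120 and 143 against 98.2, 61.9, 81.3 and 79.7. All senescent samples were below all non-senescent samples of the same batch.

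The log2 fold change of POT1 was -0.70 ± 0.14 (SE, limma adjusted p 9.68e-04), or 1.62-fold lower. It was -0.42 within batch A and -0.84 within batch B. POT1 was the only one of the 8 tested members past both limits, where 11.8% of all tested genes fell and 11.6% rose. No member rose past both limits by limma, edgeR or DESeq2, while 2 members, TERT and TERF2IP, were higher by limma at an unadjusted p under 0.05. The fall of POT1 was also called by edgeR (-0.70, adjusted p 7.76e-04) and without each library in turn (-0.76 to -0.61). In batch A alone the change was inside the fold change limit, at an adjusted p of 0.0966. POT1 had 82 to 163 reads per non-senescent library and 59 to 151 per senescent library, so counting error is sizeable here too. POT1-AS1 is annotated antisense within the gene but not over its last exon.

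**Figure D1:**
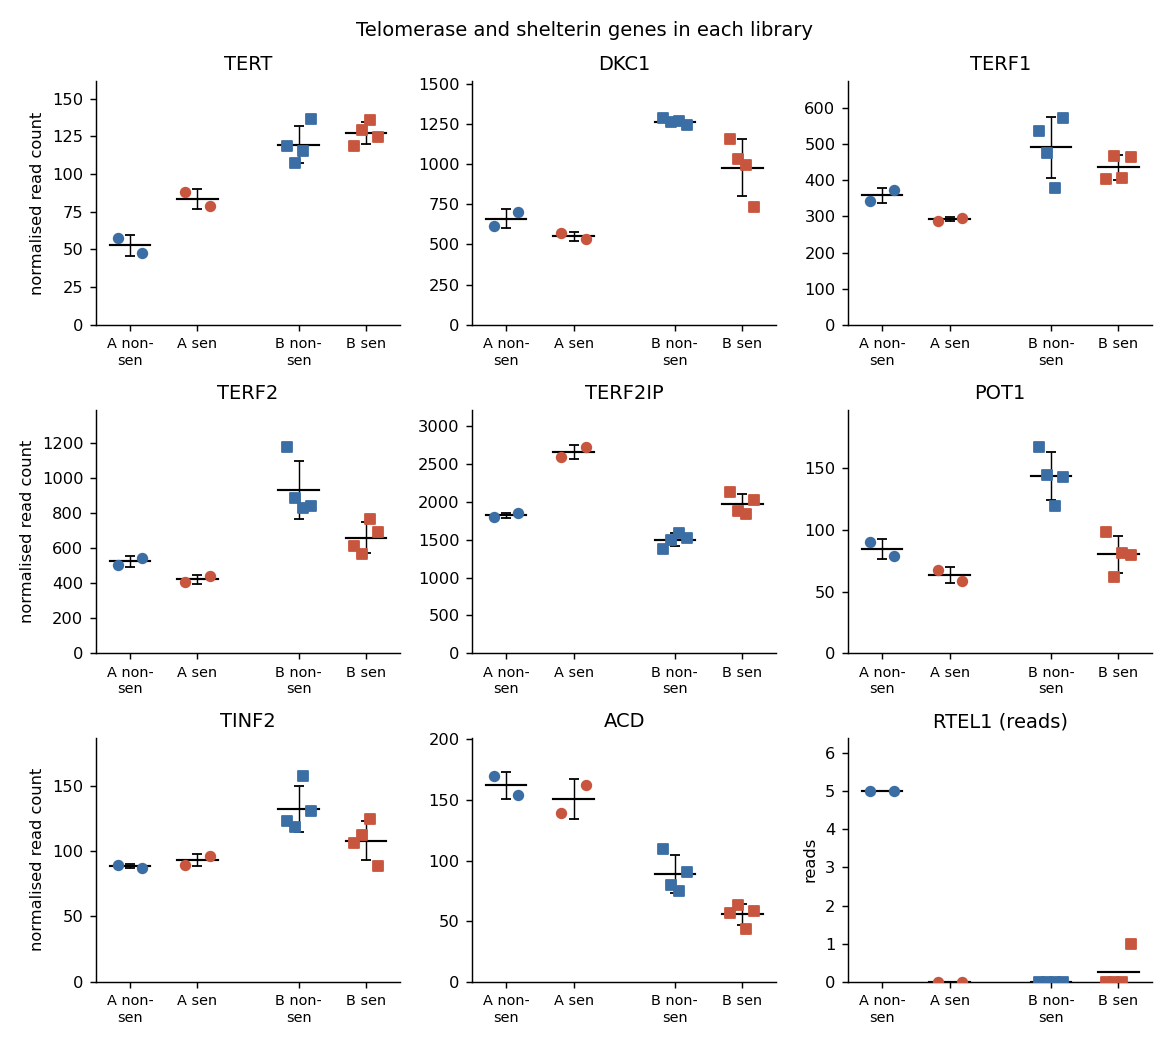
Normalized read counts of the 8 tested genes, and reads of RTEL1, in each library (points), by batch and group, with group means (long bars) and SD (whiskers, not drawn for RTEL1), blue for non-senescent (non-sen) and red for senescent (sen), circles for batch A and squares for batch B. POT1 is lower and TERF2IP higher in every senescent library of each batch, and TERT is apart between groups in batch A only.

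TERF2IP (chromosome 16, MANE transcript 75647773 to 75657432, plus strand, 3 exons) had 1794 and 1846 normalized read counts in non-senescent and 2591 and 2727 in senescent samples of batch A. In batch B its values were 1379, 1498, 1588 and 1522 against 2135, 1873, 1840 and 2018. The groups did not overlap in either batch, and this was the one member higher in every senescent sample of both batches. Its log2 fold change was 0.44 ± 0.06 (SE, limma adjusted p 2.93e-05), or 1.36-fold. It was 0.55 within batch A and 0.39 within batch B. The 95% interval, 0.31 to 0.58, lies below the fold change limit of 0.585. With 916 to 5771 reads per library, TERF2IP was counted more precisely than POT1, TERT, TINF2 or ACD.

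TERF2, the partner that TERF2IP rides on, differed in the opposite direction. TERF2 (chromosome 16, 69355567 to 69408571, minus strand) had 504 and 544 normalized read counts in non-senescent and 405 and 440 in senescent samples of batch A. In batch B it had 1179, 887, 830 and 840 against 614, 568, 765 and 694. The groups did not overlap in either batch, with the senescent samples lower. The log2 fold change was -0.43 ± 0.10 (SE, limma adjusted p 0.00211). It was -0.31 within batch A and -0.49 within batch B. A read-through gene on the same strand shares 740 bp of the last exon of TERF2, so the division of reads between them is uncertain.

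TERF1, the second protein that binds the double-stranded repeats, did not pass. TERF1 (chromosome 8, 73008856 to 73048123) had 343 and 374 normalized read counts in non-senescent and 288 and 296 in senescent samples of batch A. In batch B it ranged from 378 to 572 and from 405 to 467, and the groups overlapped there. The log2 fold change was -0.20 ± 0.10 (SE, 95% interval -0.41 to 0.0041, limma adjusted p 0.114). It had an adjusted p of 0.0806 by edgeR and of 0.0142 by limma without non-senescent replicate B3.

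ACD (chromosome 16, 67657512 to 67660810, minus strand) had 170 and 154 normalized read counts in non-senescent and 139 and 162 in senescent samples of batch A, which overlap. In batch B the values were 110, 79.8, 74.5 and 90.7 against 57.0, 63.0, 43.5 and 58.5, with every senescent sample lower. The log2 fold change was -0.48 ± 0.15 (SE, limma adjusted p 0.0183). Batch B alone gave -0.67 (limma adjusted p 0.0271), past the fold change limit, and batch A alone gave -0.11 (adjusted p 0.556). The difference between the batches did not pass (limma interaction adjusted p 0.384). The last exon of ACD overlaps CARMIL2, on the opposite strand, by 58 bp.

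TINF2 (chromosome 14, 24238286 to 24242663, minus strand) was 89.5 and 87.4 normalized read counts in non-senescent and 89.8 and 96.6 in senescent samples of batch A. In batch B it ranged from 118 to 158 and from 88.4 to 125, which overlap. The log2 fold change of -0.17 ± 0.13 (SE, 95% interval -0.44 to 0.10) did not pass (limma adjusted p 0.313). Its sign differed between batches, with 0.07 in A and -0.29 in B.

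**Figure D2:**
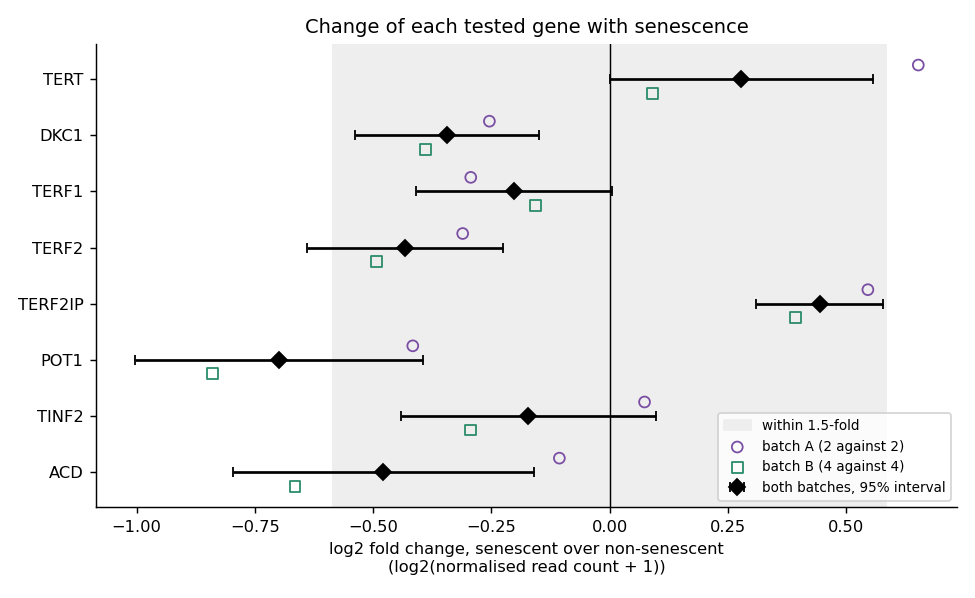
Log2 fold change of each tested gene (black diamonds, with the 95% interval from limma), and the change within batch A (circles) and batch B (squares), on the log2(normalized read count + 1) scale; the grey band spans changes within 1.5-fold. POT1 (-0.70) is outside the band, TERF2IP (0.44) lies opposite to TERF2 (-0.43), and the intervals of TERF1 and TINF2 include 0.

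RTEL1 (chromosome 20, 63657810 to 63696253) had 5 reads in each non-senescent library of batch A, 0 in both senescent libraries of batch A, 0 in all 4 non-senescent libraries of batch B, and 1 read over the 4 senescent libraries of batch B. The read-through gene RTEL1-TNFRSF6B covers the whole last exon of RTEL1 (468 bp) on the same strand, and Salmon has to divide reads between them. RTEL1-TNFRSF6B had 0 reads over the non-senescent libraries and 5 over the senescent libraries of batch A, and 2 in each group of batch B. A library with 0 reads allows up to 3 reads, or 0.175 to 0.642 ppm of its reads, and this limit covers counting error only. In batch A the non-senescent libraries had 0.391 and 0.563 ppm of RTEL1, above the limits of 0.175 and 0.230 ppm that the senescent libraries allow, while the read-through gene had its 5 reads in the senescent libraries. How reads were divided between the 2 genes cannot be settled from these values. In batch B no difference in RTEL1 was detectable at this depth.

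The make-up of the shelterin reads within a library does not depend on how libraries are scaled. TERF2IP supplied 60.0% and 59.9% of the reads of the 6 shelterin genes in non-senescent and 72.4% and 72.1% in senescent samples of batch A. In batch B its share was 39.4% to 50.4% in non-senescent and 56.4% to 62.5% in senescent samples. POT1 supplied 3.03% and 2.55% against 1.89% and 1.55% in batch A, and its batch B share was 3.81% to 4.78% against 1.97% to 2.87%. Of the 6 shares, 4 did not overlap between groups in either batch, with TERF2IP higher and POT1, TERF2 and ACD lower in senescent samples. The shares sum to 100%, so a larger share of TERF2IP lowers those of the other genes. The normalized read counts of ACD itself overlapped in batch A (170 and 154 against 139 and 162). A share of this kind was not computed for all genes, so the count of shares has no background.

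Per read of TERF2 there were 3.39 and 3.56 reads of TERF2IP in non-senescent and 6.20 and 6.40 in senescent samples of batch A. In batch B the ratio was 1.65 ± 0.33 against 3.02 ± 0.47 (SD, n = 4). POT1 per ACD, another pair of direct partners, was lower in senescent samples of batch A (0.533 and 0.510 against 0.487 and 0.361) and overlapped between groups in batch B (1.52 to 1.81 against 0.983 to 1.87). TINF2 per ACD was higher in senescent samples of batch A (0.526 and 0.567 against 0.645 and 0.595) and overlapped in batch B (1.12 to 2.12 against 1.51 to 2.87). The summed normalized read counts of the 6 genes overlapped in batch B (3149 to 3496 against 3145 to 3416) and were higher in senescent samples of batch A (2991 and 3084 against 3581 and 3780). These read ratios were chosen after the values were seen, are descriptions of mRNA reads, and carry no test.

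**Figure D3:**
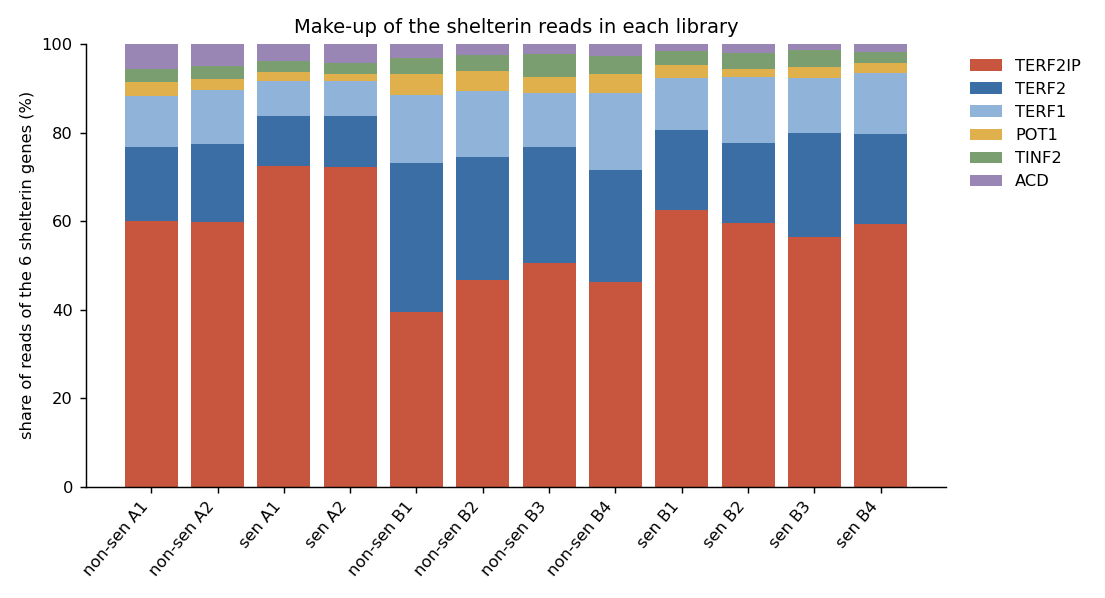
Share of each gene in the summed reads of the 6 shelterin genes (percent, stacked bars) in each of the 12 libraries, ordered by batch and group (non-sen for non-senescent, sen for senescent). The TERF2IP share is larger in the senescent libraries of each batch, 72.1% and 72.4% against 59.9% and 60.0% in batch A.

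Across the 8 tested members, 4 did not overlap between groups in both batches, 3 lower (TERF2, POT1 and DKC1) and 1 higher (TERF2IP). Of all tested genes, 11.9% were lower and 11.9% higher by that measure. At the adjusted p limit alone 4 of 8 members were lower and 1 was higher, beside 22.3% and 23.2% of all genes, or 45.5% in either direction. The sign agreed between batches in 7 of 8, TINF2 being the exception. For 0 of 8 did the response differ between batches (limma interaction, adjusted p under 0.1, passed by 4.21% of all genes), with 1 at an unadjusted p under 0.05 (TERT). By edgeR 0 were called, with 2 at an unadjusted p under 0.05 (ACD and TERT).

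The level of these genes also differed between the batches. All 8 members differed between batches at an adjusted p under 0.1, beside 71.6% of all genes, and 4 of them also by over 1.5-fold, beside 53.1%. TERT, DKC1 and TERF2 were higher in batch B, by 0.89, 0.87 and 0.73 on the log2 scale, and ACD was higher in batch A (-1.16, B minus A). In 6 of 8 members the log2 difference between batches was larger than that between groups, POT1 and TERF2IP being the 2 exceptions, as it was in 68.1% of all genes.

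The genes whose profile was most like that of TERT over the 12 libraries, after centring within batch, were POLR3F, FAHD1 and CD24, with root mean square differences of 0.09, 0.09 and 0.10 on the log2 scale. Those most like DKC1 were PRKRA, CNBD2 and THYN1, with 0.08, 0.08 and 0.09. Over all 9474 candidate genes with a mean of at least 50 the median difference was 0.34 from TERT and 0.35 from DKC1. The match included the difference between groups. That none of the 6 passed both limits, like TERT and DKC1, therefore follows from how they were chosen and is no separate result.

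Other telomere genes were described through lists. CTC1, STN1 and TEN1 form the complex that brings polymerase alpha-primase to chromosome ends to fill in the lagging strand. Of 7 tested genes of this group 4 fell, all of them subunits of polymerase alpha-primase, and 2 rose, CTC1 and TEN1, beside 11.8% and 11.6% of all tested genes. PRIM1, the primase catalytic subunit, fell most (-1.58 ± 0.16, SE, limma adjusted p 5.09e-07). TEN1 rose most (1.00 ± 0.37, SE, limma adjusted p 0.0417), but stood at -0.00087 in batch A, at a mean of 12.1 normalized read counts, and did not pass without the batch term (limma adjusted p 0.111). For CTC1 the log2 fold change was 0.81 ± 0.21 (SE, limma adjusted p 0.00641), and it was 1.02 within batch A and 0.70 within batch B, where it did not pass (limma adjusted p 0.131).

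Genes that replicate telomeres, process their ends or signal from them numbered 20 tested, of which 11 fell and 1 rose, beside the same 11.8% and 11.6%. EME1, a subunit of a structure-specific nuclease, fell most (-2.68 ± 0.38, SE, limma adjusted p 2.72e-05), and WRN, the Werner helicase, rose by 0.59 ± 0.18 (SE, limma adjusted p 0.0143), barely beyond the limit of 0.585. WRN was inside that limit without non-senescent replicate A1 (0.57) or B2 (0.47) or senescent replicate B1 (0.55) or B2 (0.56), with every library scaled to the same total (0.49) and at a pseudocount of 8 (0.51). It did not pass without the batch term (limma adjusted p 0.105) or in batch B alone (limma adjusted p 0.107). The list median was -0.77. Many of these genes serve DNA replication everywhere in the genome, and the 10 proliferation markers had a median of -2.65. The part of proliferation in these falls was not tested.

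Of 8 tested genes that process the telomerase RNA, 1 fell, the 3′-end trimming enzyme TOE1 (-1.21 ± 0.19, SE, limma adjusted p 6.02e-05), and 0 rose by limma or edgeR. Of all tested genes 11.8% fell and 11.6% rose by limma. By limma 2 of the 8 were higher at an unadjusted p under 0.05 (PARN and MTREX). PARN, which also trims that RNA, had 0.42 ± 0.15 (SE, limma adjusted p 0.0394), inside the fold change limit. Of 15 shelterin-associated and telomere chromatin genes, 2 rose and 1 fell, beside 11.6% and 11.8% of all tested genes. By edgeR 2 fell, the second being DAXX, the histone chaperone that partners ATRX, which stood at the fold change limit by limma (1.49978-fold lower, adjusted p 0.00217). ATRX, a chromatin remodeller at telomeres, rose by 0.83 ± 0.10 (SE, limma adjusted p 3.43e-06), and CBX5, a heterochromatin protein, fell by 0.72 on the log2 scale (SE 0.10, limma adjusted p 1.49e-05). ATRX was inside the fold change limit in batch A alone (0.49). The CBX5 call was lost in batch B alone (-0.58, inside the limit) and without the batch term (limma adjusted p 0.258). TNKS, a tankyrase that releases TERF1 from telomeres, rose by 0.71 ± 0.22 (SE, limma adjusted p 0.0187), and was inside the fold change limit without non-senescent replicate B1 (0.56) or senescent replicate B4 (0.58). TNKS was called in neither batch alone (0.47 in batch A, inside the limit, and 0.83 in batch B at a limma adjusted p of 0.106).

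Outside the 9 members, 59 genes of these lists were tested, and 18 fell and 5 rose, beside 11.8% and 11.6% of all tested genes. Their median log2 fold change was -0.22, and 22 of them were lower without overlap in both batches and 2 higher. Of all tested genes, 11.9% were lower and 11.9% higher without overlap in both batches.

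**Figure D4:**
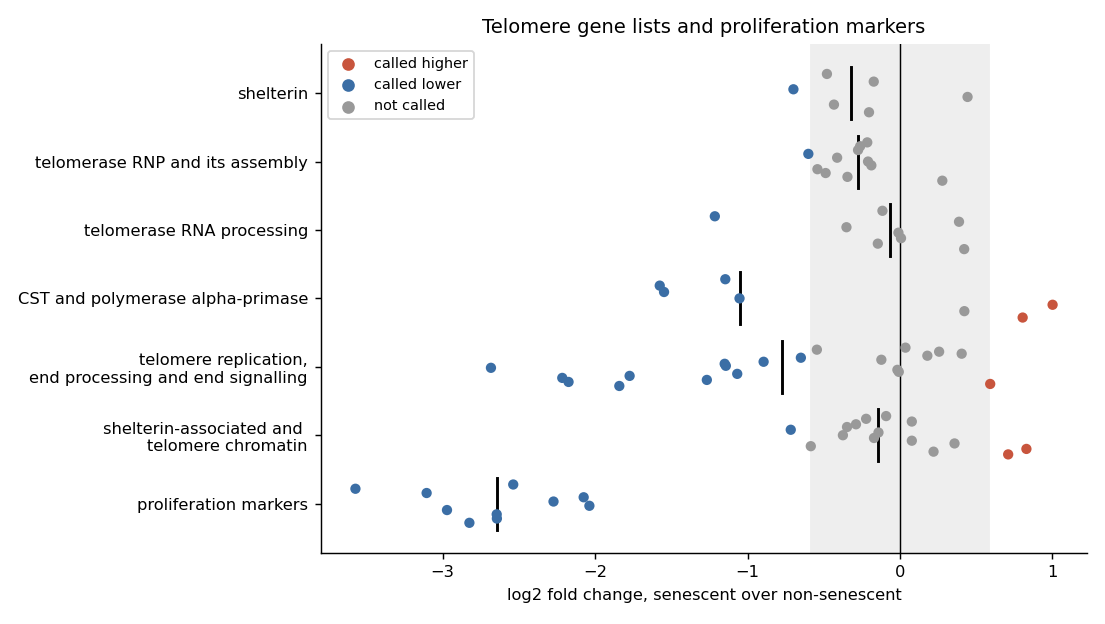
Log2 fold change of each tested gene (points) in the telomere gene lists and among the proliferation markers, red where called higher, blue where called lower and grey where not called; black bars are list medians and the grey band spans changes within 1.5-fold. The medians of the polymerase alpha-primase list (-1.05) and the replication list (-0.77) lie to the left of the shelterin median (-0.32), and proliferation markers lie furthest left (-2.65).

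The members' changes were recomputed under 14 other settings and without each library. POT1 was called in 13 of 14 settings, TERF2IP was higher with an adjusted p under 0.1 in 14 of 14 but past the fold change limit in 0, and TERF2 and DKC1 were lower with an adjusted p under 0.1 in 13 of 14, lost in both cases when the batch term was left out (limma adjusted p 0.250 and 0.463).

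**Figure D5:**
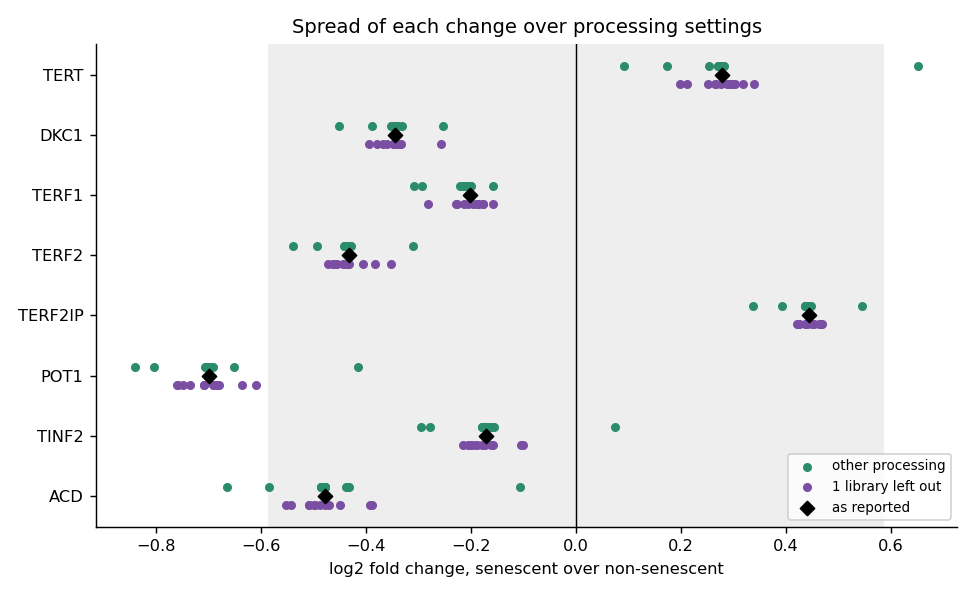
Log2 fold change of each tested gene as reported (diamonds), under 14 other processing settings (green) and without each of the 12 libraries in turn (purple); the grey band spans changes within 1.5-fold. POT1 leaves the band in all but 1 setting, TERF2IP stays on the higher side (0.34 to 0.55), and TINF2 crosses 0 in batch A alone.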

How the data were processed

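Per the paper's methods and the submitters' processing notes, the authors used Cutadapt for trimming of the CEL-seq2 reads, Salmon 0.13.1 for quantification against GRCh38 and DESeq2 for scaling. The transcript annotation and the use of molecular identifiers are not given in the sources used here. The deposited table thus holds a signal, called normalized read counts: numbers of reads of each gene over the size factor of the sample. All 196021 non-zero values were whole multiples (within 0.01) of the smallest value of their column, so whole reads were recovered. edgeR 4.0.16 called 1561 higher and 1677 lower genes on these reads. The authors' own fold changes, test statistics and p-values in the same table were not used.

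limma 3.58.1 (R 4.3.3, with trend) was fitted to log2(value + 1) for the 13847 genes with a mean of at least 5, with batch and group as terms. The log2(value + 1) scale understates changes of low genes. A gene was called (said to rise or fall) when its p, adjusted by Benjamini-Hochberg over all tested genes, was under 0.1 and it changed by more than 1.5-fold. Sample titles gave the group, batch and replicate of each column. Libraries of a group and batch differed by more than counting noise (chi-square per degree of freedom of 4.02 to 7.43). Gene positions and overlaps are from GENCODE v44. The members and lists were chosen with earlier results of these data known. From each list the largest called fall and rise were named, and the other list genes were named after their values were seen. TENT4B was found under its older symbol PAPD5. Alternatives varied the pseudocount, filter, scaling, batch term, replicate block, batches, libraries and tool (DESeq2 1.42.0 among them). The limma fit was tested on simulated data.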

Additional observations from a re-analysis of the deposited data

Results flagged for a closer look

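TERF2 in non-senescent samples of batch B had 1 sample far from the others, replicate B1 at 1179 normalized read counts against 830 to 887, with a gap of 0.838 of the range of the group. By chance about 1 in 20 groups would show such a gap, and 32 groups were examined. Without that library the log2 fold change of TERF2 was -0.35.

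Among the 59 other telomere genes, 4 differed between batches in their response (limma interaction, adjusted p under 0.1, passed by 4.21% of all genes). On the log2 scale the response in B minus that in A was -0.59 for NHP2 (adjusted p 0.0917), 0.81 for RAD50 (adjusted p 0.0840), -0.67 for RUVBL1 (adjusted p 0.0991) and 0.83 for TNKS2 (adjusted p 0.0915). RAD50, RUVBL1 and TNKS2 had opposite signs in the 2 batches.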

How the results depend on the processing

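No member was called higher and 1 lower in the main comparison. In batch A alone 1 was higher (TERT) and 0 lower, in batch B alone 2 were lower (POT1 and ACD), and without the fold change limit 1 was higher and 4 lower. The other settings, and the fits without 1 library, gave 0 and 1. TINF2 changed sign in batch A alone (0.074). Of the 59 other genes, 3 were higher without the batch term, in batch A alone and in batch B alone, against 5. Without the fold change limit 8 of the 59 were higher and 29 lower, beside 23.2% and 22.3% of all tested genes. Fits without 1 library gave 4 to 5 higher and 17 to 20 lower. The cause of these moves was not tested. Over all 13847 tested genes, leaving out the batch term gave 1037 higher and 1106 lower calls against 1605 and 1632. Batch A alone gave 1667 higher and 1574 lower calls, and batch B alone 1648 and 1679. Fits without 1 library gave 1545 to 1639 higher and 1569 to 1642 lower calls over the same genes. Scaling to the same total moved the median of all genes to -0.09 and the share of higher calls from 49.6% to 37.0%. Relative to that median POT1 stood at -0.71 and TERF2IP at 0.43. Same-numbered samples of batch B did not deviate together (correlations -0.0052 to 0.016, with 0 of 4 non-senescent samples closest to their own number). Batch A gave a single value (-0.05), because the deviations of 2 samples from their mean mirror each other. The replicate block gave 0 higher and 1 lower members and changed no call of a member. Low depth limits RTEL1, and in batch B also ACD (38 to 73 reads per library). POT1 was little deeper in batch B, at 82 to 115 reads per non-senescent and 59 to 81 per senescent library.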
